A study of Mus musculus with 12 samples.

Results

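The regions described here are the intronic polyadenylation (IPA) parts on the 5′ side of their genes, called early IPA parts. They came from a table of 138745 exon parts, in which the authors had put 4111 parts into the class IPA. An exon part is a stretch of a gene that is counted as a unit. Within each gene with at least 3 rows, rows were ordered from the 5′ end by strand, and an IPA part was kept when its relative place in that order was below 0.5. This gave 1840 early IPA parts in 1511 genes, of 4095 IPA parts in genes with at least 3 rows. The rule itself uses class and place and no fold change or p-value.

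An RNA polymerase II transcript can be cleaved and polyadenylated inside an intron, before the last exon is made. Such a transcript lacks all later exons, and a protein made from it can be truncated. U1 snRNP, which binds 5′ splice sites, is known to keep intronic sites silent, and fast elongation and prompt splicing also work against them. CDK13 and its relative CDK12 pair with cyclin K and phosphorylate the tail of the polymerase's largest subunit, and loss of CDK12 is known to raise the use of intronic sites in mouse embryonic stem cells. Short polyadenylated transcripts that stay in the nucleus are cleared by the RNA exosome with the help of adaptor proteins.

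The cells were V6.5 mouse embryonic stem cells of a C57Bl/6-129 background with the genotype Cdk13-/- and Cdk13 Tg+. All libraries, controls included, thus came from cells with the endogenous gene disrupted and with a doxycycline-inducible, epitope-tagged Cdk13 transgene. There were 12 libraries of polyadenylated RNA from 2 independently derived clones (11-8 and 14-1), 4 per condition: doxycycline at 1 µg/mL throughout (+Dox), and 48 h or 72 h without it. The design has no drug withdrawal in cells that keep Cdk13, so loss of Cdk13 and removal of doxycycline cannot be told apart. Each clone gave biological duplicates per condition, with RNA integrity numbers of 8.9 to 9.3. The deposited values are 1 log2 fold change and 1 FDR-adjusted p per part and time, cells without Cdk13 over cells with it, from DEXSeq, a method that asks whether a part's share of its gene's reads differs. The table gives no measurement for a single library, so depth and the spread between replicates are unknown, and how the test treated the 2 clones is not given in the labels. The identity of the cells could be checked only by which marker genes had tested parts at 72 h, 6 of 8 for embryonic stem cells, 5 of 6 for fibroblasts and 5 of 8 for germ layers, which says nothing of their levels.

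To show what an intronic site looks like, the 3′ ends of the early IPA parts were compared with annotated transcript ends (GENCODE M21, on GRCm38). For 7 parts the distances from the end to at least 4 other parts of the gene equalled those in the annotation, and none of these was among the parts called below 0.05. They are shown because their sequence could be read from the annotated transcript. Each line gives the last 30 bases of that transcript, 5′ to 3′, with a polyadenylation signal (AATAAA or ATTAAA, searched on the transcript strand) in capitals. The windows are chr1:190937976-190938005 (plus strand) for Angel2, chr5:123936616-123936645 (plus) for Ccdc62, chr5:30747985-30748014 (plus) for Dpysl5, chr12:24995127-24995156 (plus) for Kidins220, chr14:59422521-59422550 (minus) for Setdb2, chr19:36855908-36855937 (plus) for Tnks2 and chr2:83658273-83658302 (plus) for Zc3h15.
Angel2 E011: gaagatgataacATTAAAagaataccaatt
Ccdc62 E004: taaaagcagatgtgtgtgcatggaggcatg
Dpysl5 E004: tgctagaATTAAAggcatgagccaccacca
Kidins220 E012: tttgaaactAATAAAatttccagtcttgtt
Setdb2 E012: tttacAATAAAttataaatgttttaaagtc
Tnks2 E010: gattcataATTAAAcaactctaccaagtgt
Zc3h15 E007: atttaAATAAAtggtgcttagaatacagtg

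A signal stood in 6 of the 7 windows, against 29.6% of 141722 annotated transcripts and 44.1% of 58793 protein-coding ones with the same window. The 7 were chosen by their annotated ends, so the share does not stand for early IPA parts in general. The transcript was annotated as protein-coding only for Dpysl5 and Setdb2, and the difference was not tested. The window of Ccdc62 held neither form. A match describes the letters and does not show that the site is used. Of the 7, only Dpysl5 E004 and Tnks2 E010 had values at 72 h, a log2 fold change of 0.29 (adjusted p = 0.379) and of -0.41 (adjusted p = 0.550) in the authors' deposited table. Dpysl5 encodes a collapsin response mediator protein of neurons, and Tnks2 encodes tankyrase 2, a poly-ADP-ribosyltransferase.

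Early IPA parts were wide compared with unclassified parts, and most were the only one in their gene. Their median width was 786.5 bases (quartiles 223 and 2711.5), against 521 bases for IPA parts on the 3′ side and 112 bases for unclassified parts, a class that takes in internal constitutive exons, on the 5′ side. The narrowest was 1 base and the widest, E003 of Hs6st2, a heparan sulfate sulfotransferase gene, was 171776 bases. In 1270 genes there was 1 early IPA part, in 192 there were 2, in 33 there were 3 and in 16 there were 4 or more. Counting parts that followed each other in the table with no row of another class between them as 1 stretch, the 1840 parts formed 1674 stretches, and 278 parts lay in 112 stretches of at least 2. Parts of a stretch can lie in different introns, since the table does not list every exon part. The part before an early IPA part was a first exon in 407 cases. For 16 early IPA parts the gene ID joined more than 1 gene, and overlap among joined genes was not counted. None of the early IPA parts overlapped a row of another gene ID on the same strand, and 2 overlapped one on the opposite strand. Their genes had a median of 14 rows, against 9 for all genes with at least 3 rows, and 24.1% of them also had a detained intron, an intron kept in otherwise spliced polyadenylated RNA, against 15.7% of those genes.

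Most early IPA parts were not tested. An adjusted p was given for 33 parts (1.79%) at 48 h and for 730 (39.7%), in 668 genes, at 72 h, while 30.5% and 76.1% of all parts had one. The median width was 1482.5 bases for parts tested at 72 h and 541.5 bases for the 1110 others. Parts with no adjusted p are counted as not tested, and low counts as the reason were not tested.

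After 72 h without doxycycline, early IPA parts moved in both directions, and the called ones by larger amounts than called parts in general. An adjusted p below 0.05 was given in the authors' deposited table to 46 of them, each in a different gene, which is 6.30% of those tested, against 3.60% of all parts. Of these, 29 were higher (3.97% of those tested, against 2.33% of all parts) and 17 lower (2.33%, against 1.28% of all parts). The median absolute log2 fold change of the called parts was 0.61, against 0.16 for all called parts. It was 0.42 for called IPA parts on the 3′ side and 0.43 for called detained introns of the 5′ side. Of the 46 early IPA parts, 44 reached 0.3. Over the 730 tested parts the median log2 fold change was 0.01 (quartiles -0.15 and 0.18), with 378 parts above 0 and 352 below. The spread between quartiles was 0.33, against 0.28 for IPA parts on the 3′ side and 0.11 for all tested parts. A log2 fold change of 0.5 or more in size was reached by 69 parts (9.45%). That was about as often as by detained introns of the 5′ side (9.48%), against 6.56% of IPA parts on the 3′ side and 1.38% of all parts. Of the 69, 40 were not called. In bulk RNA, a change within cells and a change in the mix of cells cannot be told apart.

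**Figure D1:**
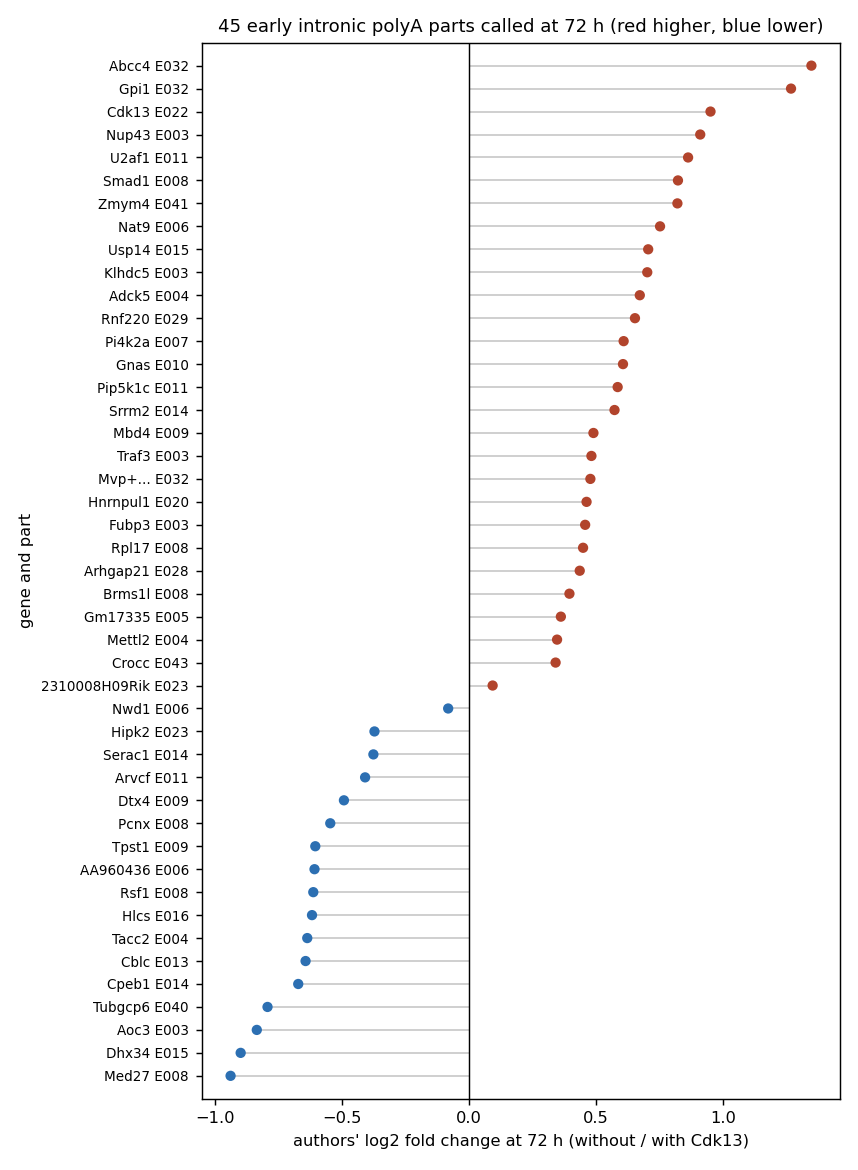
Authors' log2 fold change at 72 h (x axis, cells without Cdk13 over cells with it) of 45 of the 46 early IPA parts with an adjusted p below 0.05, 1 row per gene and part. The 28 higher parts shown (red) reach 1.35 in Abcc4, the 17 lower parts (blue) reach -0.94 in Med27, and only 2310008H09Rik (0.09) and Nwd1 (-0.08) lie within 0.3 of 0.

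The largest rises were in Abcc4 and Gpi1. Part E032 of Abcc4, which encodes an ATP-dependent efflux pump (chromosome 14, 119009053 to 119010658, minus strand, mm9), rose by 1.35, a 2.54-fold change in relative use, with adjusted p = 0.000669 in the authors' deposited table. Part E032 of Gpi1, the glucose-6-phosphate isomerase gene (chromosome 7, 35011676 to 35012136, minus strand), rose by 1.27 (adjusted p = 0.0227) in the authors' deposited table. Both parts stood far above the exons around them: the nearest tested parts were at 0.03 and -0.04 in Abcc4 and at 0.04 and 0.00014 in Gpi1. Abcc4 held another 2 IPA parts with raised values further 3′, E024 at 0.91 (adjusted p = 0.0784) and E022 at 0.54 (adjusted p = 0.244), which the authors' test did not call. A further tested IPA part, E011, was at 0.00027 (adjusted p = 0.992 in the authors' test). The other called parts of Abcc4, the unclassified E006 and E004 near the 3′ end, were both at -0.13.

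The early IPA part with the lowest adjusted p was E008 of Smad1, a transcription factor gene of the BMP pathway (chromosome 8, 81886091 to 81895682, minus strand). It is 9592 bases wide, directly follows the first exon in the table, and rose by 0.82 (adjusted p = 1.74e-12) in the authors' deposited table. The first exon was at 0.11, and the 4 parts after the intronic one lay between -0.10 and 0.02. Of the 6 parts of Smad1, all tested, only the intronic one was called.

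Other large rises were in Nup43, U2af1, Usp14 and Klhdc5. In the authors' deposited table the rise was 0.91 for E003 of Nup43, a nucleoporin of the Y-shaped complex (adjusted p = 0.0435), and 0.86 for E011 of U2af1, the subunit of the U2 auxiliary factor that contacts the 3′ splice site (adjusted p = 0.00298). The U2af1 part is only 3 bases wide, and the parts next to it were at 0.33 and 0.29 without a call. Part E015 of Usp14, a deubiquitinase of the proteasome, rose by 0.70 (adjusted p = 0.0378), and E003 of Klhdc5, a kelch-domain gene, rose by 0.70 (adjusted p = 0.000664) in the authors' deposited table. Among the 12 largest rises were also 0.82 in the zinc-finger gene Zmym4, 0.75 in Nat9 and 0.67 in Adck5, per the authors' deposited table.

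Cdk13 itself gave the other value of this size. Its part E022 (chromosome 13, 17835992 to 17842090, minus strand) was at 0.95 (adjusted p = 0.010) in the authors' deposited table, and the nearest tested parts were at -0.08 and 0.11 without a call. The other early IPA part of Cdk13, E027, was not tested at either time. Whether a read came from the transgene or from the disrupted endogenous gene cannot be told apart here, so E022 does not check the loss of Cdk13. Cdk12 and Ccnk, the gene of cyclin K, held no early IPA part.

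The other 17 rises ranged from 0.09 to 0.65. Among them, E014 of Srrm2, which encodes a large splicing scaffold of nuclear speckles, rose by 0.57 (adjusted p = 0.0316) in the authors' deposited table. In Srrm2 the 3 detained introns E026, E029 and E032 rose as well, by 0.41, 0.31 and 0.26, in the authors' deposited table. Raised detained introns also stood in Gpi1, where E019 and E017 rose by 0.76 and 0.60 in the authors' deposited table. The smallest rise, 0.09 in E023 of 2310008H09Rik, was the only early IPA part called at 72 h that had also been tested at 48 h, where it was at 0.07 and not called.

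The largest falls were in Med27, Dhx34, Aoc3 and Tubgcp6. Part E008 of Med27, a Mediator subunit gene (chromosome 2, 29333125 to 29333957, plus strand), fell by 0.94 (adjusted p = 0.0415) in the authors' deposited table, next to parts at 0.05 and 0.04. Part E015 of Dhx34, an RNA helicase gene of nonsense-mediated decay, fell by 0.90 (adjusted p = 0.0277), and E003 of Aoc3, a copper amine oxidase gene, fell by 0.84 (adjusted p = 0.000146) in the authors' deposited table. Part E040 of Tubgcp6, a γ-tubulin complex gene (chromosome 15, 88945742 to 88946474, minus strand), fell by 0.79 (adjusted p = 0.00468) in the authors' deposited table, directly after the 5′-most part, which was at 0.13 without a call.

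The other 8 of the 12 largest falls lay between -0.67 and -0.55. In the authors' deposited table they were E014 of Cpeb1 (-0.67), whose protein directs cytoplasmic polyadenylation, E013 of the ubiquitin ligase gene Cblc (-0.64), E004 of Tacc2 (-0.64), which encodes a centrosomal coiled-coil protein, E016 of Hlcs (-0.62), the holocarboxylase synthetase gene, E008 of the chromatin remodelling gene Rsf1 (-0.61), E006 of AA960436 (-0.61), E009 of Tpst1 (-0.61), a tyrosylprotein sulfotransferase gene, and E008 of Pcnx (-0.55). The other 5 falls ranged from -0.49 to -0.08. One of them was E023 of Hipk2, the gene of a nuclear stress kinase, which fell by 0.37 (adjusted p = 0.00932) in the authors' deposited table. In the same gene the first exon rose by 0.28 and the terminal exon fell by 0.30 in the authors' deposited table.

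Most called early IPA parts stood apart from the parts on either side of them. Of the 28 higher parts with a tested part on both sides, 24 had a log2 fold change above both neighbours, 3 lay between them and 1 lay below both. All 15 lower parts with both neighbours lay below both. The median difference from the nearest tested 5′ part was 0.57 for higher parts (quartiles 0.42 and 0.70) and -0.61 for lower ones (quartiles -0.78 and -0.50). The neighbours were near 0 at the median: around the higher parts their medians were 0.03 on the 5′ side and 0.01 on the 3′ side, and around the lower parts 0.03 and 0.04. The parts were called on the same fold changes, so these differences describe the called parts and are no further support for them. Over all 632 tested early IPA parts with both neighbours, 255 (40.3%) lay above both and 261 (41.3%) below both. The shares were 44.0% and 30.5% of 927 IPA parts on the 3′ side, and 26.4% and 28.3% of 34001 unclassified parts on the 5′ side.

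**Figure D2:**
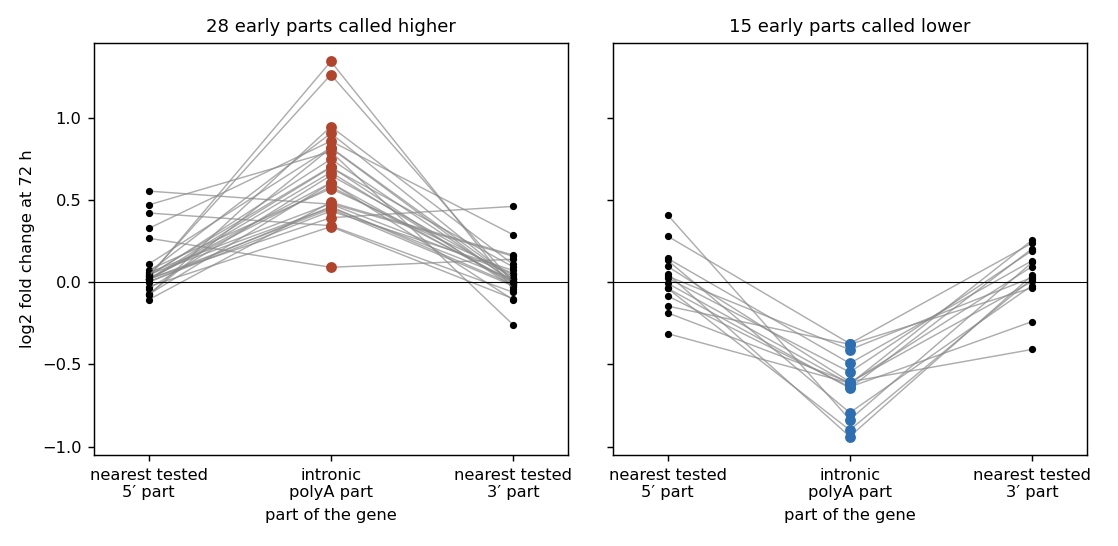
Log2 fold change at 72 h (y axis) of called early IPA parts (coloured, middle) and of the nearest tested part of the same gene on the 5′ side (left) and on the 3′ side (right), joined by a line for each gene. Of the 28 higher parts, 24 peak above both neighbours, whose medians are 0.03 and 0.01, and the 15 lower parts form troughs below neighbours at 0.03 and 0.04.

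The parts of a gene before an early IPA part tended to have slightly higher values than those after it. For 622 tested parts with other classes tested on both sides, the median of the parts before it was higher than that of the parts after it by 0.04 on the log2 scale (quartiles -0.02 and 0.11), and it was higher in 424 (68.2%). The value was above 0 for 22 of 28 parts called higher (78.6%), for 12 of 15 called lower (80.0%) and for 390 of 579 not called (67.4%). The parts before thus tended to be higher than those after whether the IPA part itself had risen, fallen or not been called. Between the nearest tested part on each side alone, the 5′ one was higher for 54.9% of 632 early IPA parts. It was higher for 55.8% of 34001 unclassified parts on the 5′ side and for 60.6% of 927 IPA parts on the 3′ side. Between nearest parts, this order was therefore not particular to early IPA parts. The comparison of all parts before and after was made for early IPA parts only, so it cannot show this. For the higher parts the medians were 0.06 before and -0.01 after, and for the lower parts 0.10 and 0.0030. Among the 29 genes with a higher early IPA part, 12 (41.4%) had some other called part, and among the 17 with a lower one 4 (23.5%) did, against 29.6% of the 668 genes with a tested early IPA part. A terminal exon was lower in 4 of the 29 genes, in 2 of the 17 and in 65 of the 668. A detained intron was higher in 3 of the 29 (Gpi1, Pip5k1c and Srrm2), in 1 of the 17 (Tacc2) and in 37 of the 668.

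**Figure D3:**
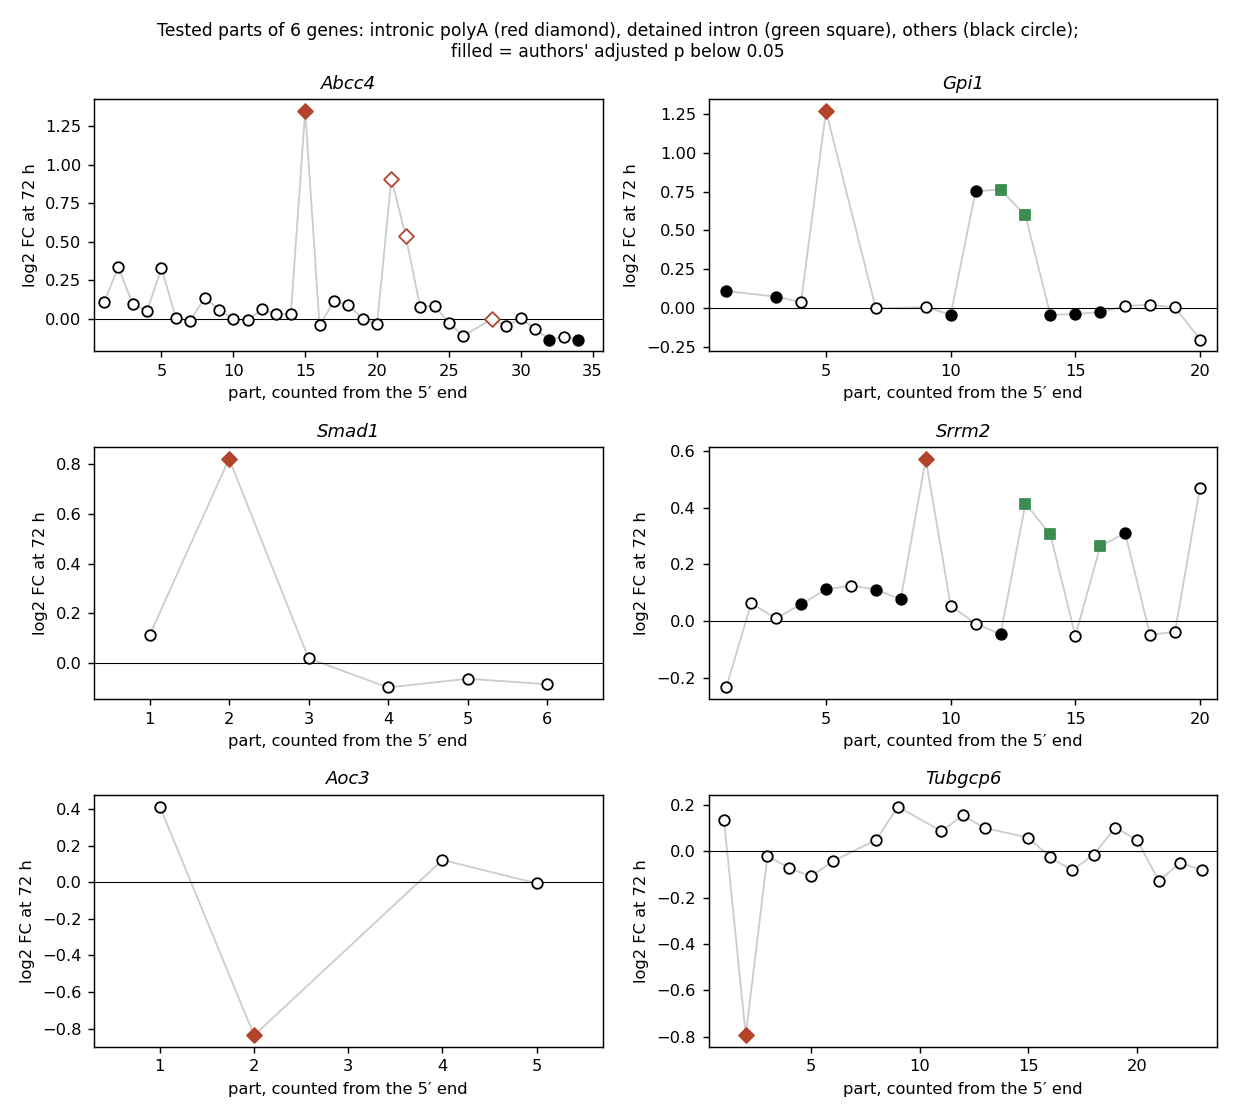
Authors' log2 fold change at 72 h (y axis) of every tested part of 6 genes in order from the 5′ end (x axis, place of the part). Filled symbols passed an adjusted p of 0.05. The early IPA part is the only called part in Smad1 (0.82), Aoc3 (-0.84) and Tubgcp6 (-0.79). In Abcc4 it is followed by 2 raised but uncalled IPA parts and by the IPA part E011 at 0.00027. Raised detained introns accompany it in Gpi1 and Srrm2.

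At 48 h little could be seen, because only 33 early IPA parts had been tested. The only call was a fall (3.03% of those tested, against 1.62% of all parts in either direction and 0.633% lower). No early IPA part was called higher at 48 h by DEXSeq, against 0.964% of all parts, and unadjusted p-values are not used here. The fall was E026 of Rcc1 (chromosome 4, 131908447 to 131908534, minus strand), a part 88 bases wide in the gene of the nucleotide exchange factor of Ran, at -0.26 (adjusted p = 0.0313) in the authors' deposited table. At 72 h the same part was at -0.19 and was not called. In the 30 parts with a fold change at 48 h, values ran from -0.26 to 0.14 with a median of -0.02, and 17 were below 0. Both times were compared with the same +Dox libraries, so values at the 2 times are not independent. The other 45 parts called at 72 h had no adjusted p at 48 h, so whether they had moved earlier cannot be read from the table.

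By direction, called early IPA parts resembled all called parts more than unclassified parts or detained introns of the 5′ side. At 72 h, 29 of 46 called early IPA parts (63.0%) were higher, against 64.5% of 3804 called parts over all classes. On the 5′ side, 1065 of 1161 called unclassified parts (91.7%) and 117 of 120 called detained introns (97.5%) were higher. The share of tested parts that were called was 3.14% for those unclassified parts, 19.97% for the detained introns and 6.30% for the early IPA parts. The median over tested parts was 0.20 for detained introns and 0.03 for unclassified parts. IPA parts on the 3′ side had 43 higher and 38 lower of 1159 tested (6.99% called), with a median of 0.01 (quartiles -0.09 and 0.19). The called parts there were smaller in change, with a median of -0.19 for lower parts against -0.61 on the 5′ side, and 0.47 against 0.61 for higher parts. None of these differences between classes or sides was tested.

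**Figure D4:**
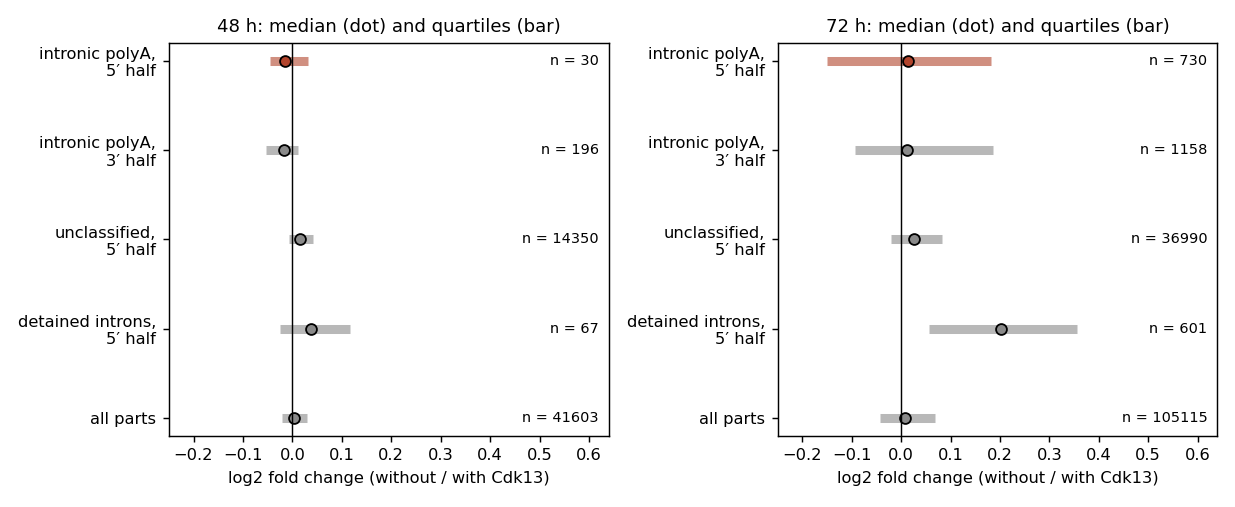
Median (dot) and quartiles (bar) of the authors' log2 fold change at 48 h (left) and at 72 h (right) over all parts with an adjusted p and a value, by class and side, with the number of parts. At 72 h the early IPA parts (red, quartiles -0.15 and 0.18) are centred near 0 and have the widest bar of the 5 groups, and the detained introns of the 5′ side lie above 0.

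Calls and medians were also counted by place within the early side. The median log2 fold change at 72 h was 0.02, 0.01 and 0.01 in parts with a relative place below 0.167, from there to 0.333, and from there to 0.5, and 7 of 168 (4.17%), 21 of 304 (6.91%) and 18 of 258 (6.98%) tested parts were called. In the group nearest the 5′ end 3 calls were higher and 4 lower, in the next 14 and 7, and in the last 12 and 6. These differences were not tested. At the limit of the choice, 36 tested IPA parts with a place from 0.45 to 0.5 had 1 call and a median of -0.0088, and 142 parts from 0.5 to 0.55 had 9 calls and a median of 0.06.

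Genes with many early IPA parts gave few values. Vps8, which encodes a subunit of the endosomal CORVET tethering complex, held 14 of them in 49 rows, Sec16a, a gene of endoplasmic reticulum exit sites, held 8, and Exoc2, of the exocyst, and the deubiquitinase-like gene Usp54 held 6 each, and none of these was tested at 72 h. The zinc-finger gene Zfp462 also held 6. Of these, 3 were tested at 72 h, at 0.10, -0.0045 and -0.36, with no call (lowest adjusted p = 0.176) in the authors' deposited table. In 55 genes at least 2 early IPA parts were tested at 72 h, and their values were all above 0 in 15 genes, all below 0 in 17 and of both signs in 23.

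Among genes that control premature polyadenylation, the called early IPA parts were those of Cdk13 and U2af1. A list of 47 cleavage and polyadenylation, U1 snRNP, elongation and related genes held 12 early IPA parts in 9 genes, while 1511 of 11757 genes with at least 3 rows held one. Of the 12, 6 were tested at 72 h and 2 were called, both higher, against 6.30% called of all tested early IPA parts. One of the 2 lies in Cdk13, the gene that was itself manipulated, and the U2af1 part is only 3 bases wide. In any class, 21 of the 45 genes of that list tested at 72 h had a called part, against 19.1% of all tested genes. A higher part was seen in 18 of them and a lower one in 8. At 48 h the count was 8 of 42, against 7.12% of all tested genes, with a rise in 6 and a fall in 2. At neither time were genes matched for their number of tested parts, and the differences were not tested. A list of nuclear RNA surveillance genes held 2 early IPA parts, neither tested, and 10 of its 29 genes tested at 72 h had a called part of any class, with a rise in 8 and a fall in 7. The corresponding count at 48 h was 6 of 26, with a rise in 4 and a fall in 2.

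In the other lists, 4 calls fell on early IPA parts in all, counting U2af1 again. Against 6.30% of all tested early IPA parts at 72 h, 2 of 6 in splicing factor genes were higher (U2af1, which is on both lists, and Srrm2), 1 of 5 in ubiquitin ligase and protease genes was higher (Usp14) and 1 of 13 in kinase and phosphatase genes was lower (Hipk2). None of 5 in DNA damage response genes, of 8 in chromatin regulator genes or of 3 in pluripotency genes was called by DEXSeq, with medians of 0.19, -0.11 and -0.01. The DNA damage response genes, several of which are known to be sensitive to intronic polyadenylation when CDK12 is lost, held 22 early IPA parts in 13 genes, so most of these were not tested. In any class, a called part at 72 h was found in 40 of 62 tested splicing factor genes (64.5%, with a rise in 36 and a fall in 23) and in 28 of 54 chromatin regulator genes (51.9%, with a rise in 24 and a fall in 20). The share was 39.1% for ubiquitin ligase and protease genes (18 of 46) and 37.0% for pluripotency genes (10 of 27). It was 20.5% for DNA damage response genes (8 of 39) and 19.7% for kinase and phosphatase genes (12 of 61). Over all tested genes it was 19.1%. Genes were not matched for their number of tested parts, and the lists were chosen with earlier results of these data known. These differences were not tested.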

How the data were processed

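Polyadenylated RNA of 12 stranded libraries was sequenced, per the labels. Per the file headers, DEXSeq gave the values per exon part. Per the submitters' processing notes, STAR 2.4.1d and mm9 were used. Not given in the sources used here: DEXSeq's version, model terms, counting and annotation. The authors deposited, for every part and time, a log2 fold change and a p-value adjusted for the false discovery rate. Without counts, depth per library is unknown. A value compares a part with its gene's other parts and does not measure the amount of RNA.

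From these, 1840 early IPA parts were selected, counted by direction at an adjusted p below 0.05 (no row differed from the authors' significance column) and described by medians (Python 3.11.15, pandas 2.3.3). The selection and the neighbour values were tested on simulated data. No test was added to the authors' own, because the table has no values per library. Coordinates are mm9, counted from 1. The named parts were all calls at 48 h, the 12 largest rises and falls at 72 h, up to 3 calls per gene list, any part of Cdk13, Cdk12 and Ccnk, and genes with the most early IPA parts. Hs6st2, Rpl17, Gnas, Pip5k1c, Nwd1, 2310008H09Rik and the detained introns were singled out after their values were seen. One part that the rule names is counted but not reported here. The 7 parts with sequences were taken for their match to annotated ends, with parts on chromosome 18 left out. List genes matched by symbol (376 entries) or a single older name (12), and 18 did not match. The regions and lists were chosen with earlier results of these data known.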

Additional observations from a re-analysis of the deposited data

How the results depend on the processing

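The authors' 3 conditions could not be refitted: no library could be left out, and depth, clone and the spread between replicates set limits that the table does not show. No paired analysis was possible because the table holds 1 value per part and time and none per library. At an adjusted p below 0.01, 12 early IPA parts were higher and 8 lower at 72 h and 0 were lower at 48 h. Among the 33 parts tested at both times, 1 was higher and 0 were lower at 72 h, with a median of -0.011. Counts of calls at 72 h stayed within 1.5 times under the other settings, among them an adjusted p below 0.1 (40 higher, 24 lower), a place set by genomic midpoint (22 and 14) and genes with at least 10 rows (21 and 12). Leaving out parts under 10 bases, joined gene IDs or Cdk13, settings chosen after seeing the data, gave 28 higher parts each.

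Medians near 0 moved by over 1.5 times, and some changed sign. The median at 72 h was 0.022 in genes with at least 10 rows, and 0.0084 both without the 5′-most rows and with 1 part per gene. At 48 h it was -0.0076 with the place set by genomic midpoint. The difference from the nearest 5′ part at 72 h had a median of -0.017, and of -0.0074 against the nearest unclassified part. From the nearest 3′ part it was 0.00029 at 72 h, -0.0083 against the nearest unclassified part, -0.0065 in genes with at least 10 rows and -0.00015 with 1 part per gene. At 48 h it was -0.015, with -0.028 against the nearest unclassified part and -0.024 in genes with at least 10 rows. The cause of these shifts was not tested.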

Other observations

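Very narrow early IPA parts stood apart from wider ones in these values. Of 198 parts under 100 bases, 30 were tested at 72 h and 4 were called (13.3%, against 6.30% of all tested early IPA parts). All 4 were higher (U2af1, Srrm2, Rpl17 and 2310008H09Rik). The median log2 fold change over the tested parts was 0.15 (quartiles -0.01 and 0.44). Part E026 of Rcc1, 88 bases wide, was at -0.19 at 72 h without a call, after its called fall at 48 h. In the 5 wider groups the medians lay between -0.01 and 0.03. The share of parts tested rose with width, from 15.2% under 100 bases to 59.2% at 10000 bases or more. The groups of width were chosen after the table had been seen, and the difference was not tested.

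Rpl17, a gene of the large ribosomal subunit, and Gnas, which encodes the stimulatory G protein subunit from several imprinted promoters, also had a higher early IPA part at 72 h in the authors' deposited table, by 0.45 (adjusted p = 0.0168) and 0.61 (adjusted p = 0.0144). In Gnas the nearest tested part before it, also classed IPA, was at -0.07 without a call.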
